A study of Mus musculus with 7 samples.

Results

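The genes described here encode the subunits of the proteasome and of the factors that activate, inhibit or assemble it, in mouse embryonic stem cells (ESCs) probed by CIRS-seq. They were taken by symbol alone: every gene of the CIRS-seq tables whose symbol begins with Psma, Psmb, Psmc, Psmd, Psme, Psmf or Psmg followed by a digit, other than entries named as pseudogenes. The rule took 202 of 26792 transcripts, which belong to 46 of 13218 annotated genes. These carry 45 symbols, since Psmd14 has 2 gene IDs that overlap on chromosome 2. Psma8, Psmb9, Psmd10 and Psmg3 are not analysed here. Psmc3ip matches the rule by its symbol and encodes a factor of meiotic recombination, not a subunit.

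CIRS-seq maps the positions where reverse transcription (RT) stops on RNA that was modified with dimethyl sulfate (DMS), which reacts with unpaired adenosines and cytidines, or with CMCT, a carbodiimide that reacts with unpaired uridines and, to a lesser extent, guanosines. All libraries came from E14 cells, an ESC line of strain 129/Ola, with no genetic change named in the labels. The CIRS-seq libraries came from lysates in which proteins had been digested with Proteinase K and which were kept at 30 °C. The DMS libraries pooled reactions of 50 to 200 mM for 2 min, the CMCT libraries pooled reactions of 10 to 50 mM for 20 min, and the non-treated (NT) libraries pooled the reactions with 0 mM of either reagent. Each of these had 2 replicates, and 1 RNA-seq library had none, made from RNA extracted directly from untreated cells and depleted of ribosomal RNA. Because doses were pooled, no dose series can be read from the values, and because whole lysates were probed, fewer copies of an mRNA and fewer stops per copy cannot be told apart in a count.

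The 6 CIRS-seq tables held between 181944556 and 338201940 RT stops when summed over all listed transcripts. Of these, 7.03% to 11.7% lay at positions that are specific to 1 gene. A position in several transcripts counts once for each of them in these sums. They exceed the numbers of reads that the paper gives, so they are not numbers of separate reads. For counts per gene, each genomic position was taken once, at its highest count among the transcripts of the gene. A position was called gene-specific where the 25 bases that the read must cover after it occur in no other place of the genome and in transcripts of no other gene, which held for 85.9% of positions. The RNA-seq library showed the markers of ESCs, all 9 of them at 10.7 to 316 RPKM (reads scaled by exon length in kilobases and by library size), with Dppa5a the highest. Of 10 markers of other cells, 9 had a value, 7 of these were under 1, and the highest was Gata6 at 4.35. Replicates here measure the spread between 2 libraries of a treatment. The p-values of the main fit rest on this spread pooled over NT, DMS and CMCT, not on the groups compared alone. A replicate that stands out in DMS thus also widens the error of the CMCT comparison, and the reverse.

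The proteasome is the protease that degrades proteins tagged with ubiquitin. Its core particle is a barrel of stacked alpha and beta rings, the catalytic sites lie on some of the beta subunits, and the regulatory particle, with a ring of ATPases and a set of non-ATPase subunits, recognises, unfolds and feeds in the substrate. Immune cells and cells treated with interferon exchange the catalytic subunits for immunoproteasome forms, and the thymus has its own. ESCs are known for high proteasome activity. Many of the subunit genes have processed pseudogenes, to which short reads can also be placed.

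The genes differed in how much of their RT stops could be placed. At least 90% of the RT stops were gene-specific for 22 of 46 genes and less than 50% for 14. For Psmb5, the catalytic subunit with chymotrypsin-like activity (chr14:55232644-55236851 of mm9, minus strand), 14.3% of positions and 9.31% of RT stops were gene-specific. The alpha ring gene Psma5 kept 35.6% of positions and 17.4% of RT stops. In other genes most positions were gene-specific and most RT stops were not. Psmb11, the beta subunit of the thymus, held 24801 RT stops in all 6 libraries together, 135 of them gene-specific (0.544%), although 86.3% of its positions were. Psmf1, the inhibitor known as PI31, held 270224, of which 3829 were gene-specific (1.42%), with 92.8% of its positions gene-specific. Psmf1 was listed only as a transcript with a retained intron, and the single-gene values below describe that transcript.

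The windows with the most shared RT stops in 5 of these genes show where such counts lie. The first base, in capitals, is the position of the stop and the lower-case bases are the read sequence that follows, as mm9 has it. They are shown as the single windows with the most shared RT stops of each gene. Each occurs at 250 or more places of the genome.
Psmf1, exon 3, chr2:151553771-151553796, minus strand: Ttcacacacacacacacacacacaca
Psma2, 3′ UTR, chr13:14719502-14719527, plus strand: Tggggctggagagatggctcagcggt
Psma3, 3′ UTR, chr12:72097119-72097144, plus strand: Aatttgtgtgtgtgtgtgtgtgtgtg
Psmd11, exon 2 of a retained-intron transcript, chr11:80246341-80246366, plus strand: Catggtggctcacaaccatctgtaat
Psmb11, 3′ UTR, chr14:55246897-55246922, plus strand: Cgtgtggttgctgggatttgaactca

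The Psmf1 and Psma3 windows are alternating dinucleotide repeats. The Psmf1 position alone took 42065 RT stops, 15.6% of the transcript, with 5886 and 4891 in NT, 7210 and 4236 in DMS and 13574 and 6268 in CMCT. The Psma2 position took 5616, 15.2% of its transcript. Positions of 250 or more places took 92.6% of all RT stops of Psmf1 and 89.3% of those of Psmb11, but 22.8% of those of Psma3, where 49.3% lay at positions of 2 to 10 places. Counts given from here on are of gene-specific positions unless stated.

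RNA-seq placed most subunits among the abundant mRNAs of these cells. Of the 45 genes with a value, 32 lay at or above the 90th percentile of protein-coding genes with a read, whose median was 1.02 RPKM, and 43 lay at or above the 50th. The highest were Psmb1, a beta ring subunit without catalytic activity, at 81.6, Psmb7, the catalytic subunit with trypsin-like activity, at 72.2, and Psma6 of the alpha ring at 70.4. The exact 95% Poisson intervals, which cover counting error only, were 78.0 to 85.4, 69.1 to 75.5 and 67.3 to 73.6, so the order of Psmb7 and Psma6 is within counting error. Over coding regions the highest were instead Psmb3 at 115, Psmb6 at 113 and Psmb1 at 98.4, and on reads aligned once Psmb1 at 76.8, Psma6 at 68.1 and Psmb4 at 63.2. The lowest were Psmb11 at 0.0106, from 1 read, Psmb8 at 0.0328, from 2 reads, and Psmd9, an assembly chaperone of the regulatory particle, at 1.90.

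By role, the medians were 55.0 for the 7 beta ring genes, 47.2 for the 6 ATPases of the base, 35.7 for the 7 alpha ring genes and 32.5 for the 11 non-ATPase genes of the regulatory particle. The ranges of these roles overlapped. The order of the roles depends on the reads counted, since the alpha ring median was 21.3 on reads aligned once, below the non-ATPases at 31.1, and 74.8 over coding regions, above the ATPases at 60.2. The activators spanned 3.74 for Psme2 to 43.3 for Psme4, which encodes PA200. The chaperones of the core particle spanned 4.70 for Psmg4 to 22.3 for Psmg1. More than 40% of the reads aligned at more than 1 place for 6 genes, among them Psmb5 (71.4%), whose level of 32.8 fell to 9.39 on reads aligned once.

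The catalytic subunits of the constitutive and the immune form stood apart in both assays. RNA-seq gave 32.8 for Psmb5, 55.0 for Psmb6, the subunit with caspase-like activity, and 72.2 for Psmb7. It gave 0.0328 for Psmb8, the immunoproteasome counterpart of Psmb5, and 4.84 for Psmb10, that of Psmb7. RT stops are given for each of them on the same scale as RPKM, per kilobase of gene-specific positions and scaled by the gene-specific RT stops of the library, below called the RT stop level.

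Psmb7 had 174 and 156 in NT, 198 and 176 in DMS and 182 and 164 in CMCT. Psmb6 had 82.7 and 54.1 in NT, 99.8 and 76.5 in DMS and 73.7 and 76.0 in CMCT. Psmb5, read over few positions, had 113 and 82.3 in NT, 117 and 114 in DMS and 66.9 and 88.1 in CMCT. The next values show that both immune subunits were below all 3 constitutive ones in each of the 6 libraries.

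Psmb10 had 44.1 and 31.1 in NT, 73.7 and 37.1 in DMS and 32.1 and 43.2 in CMCT. Psmb8 had 16.1 and 7.86 in NT, 34.1 and 11 in DMS and 13.4 and 17.7 in CMCT. The DMS replicates of both immune subunits differed more than those of the constitutive ones, with replicate 1 the higher. On 1 transcript per gene the order broke in CMCT replicate 2, where Psmb5 had 38.3 and Psmb10 43.2.

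**Figure D1:**
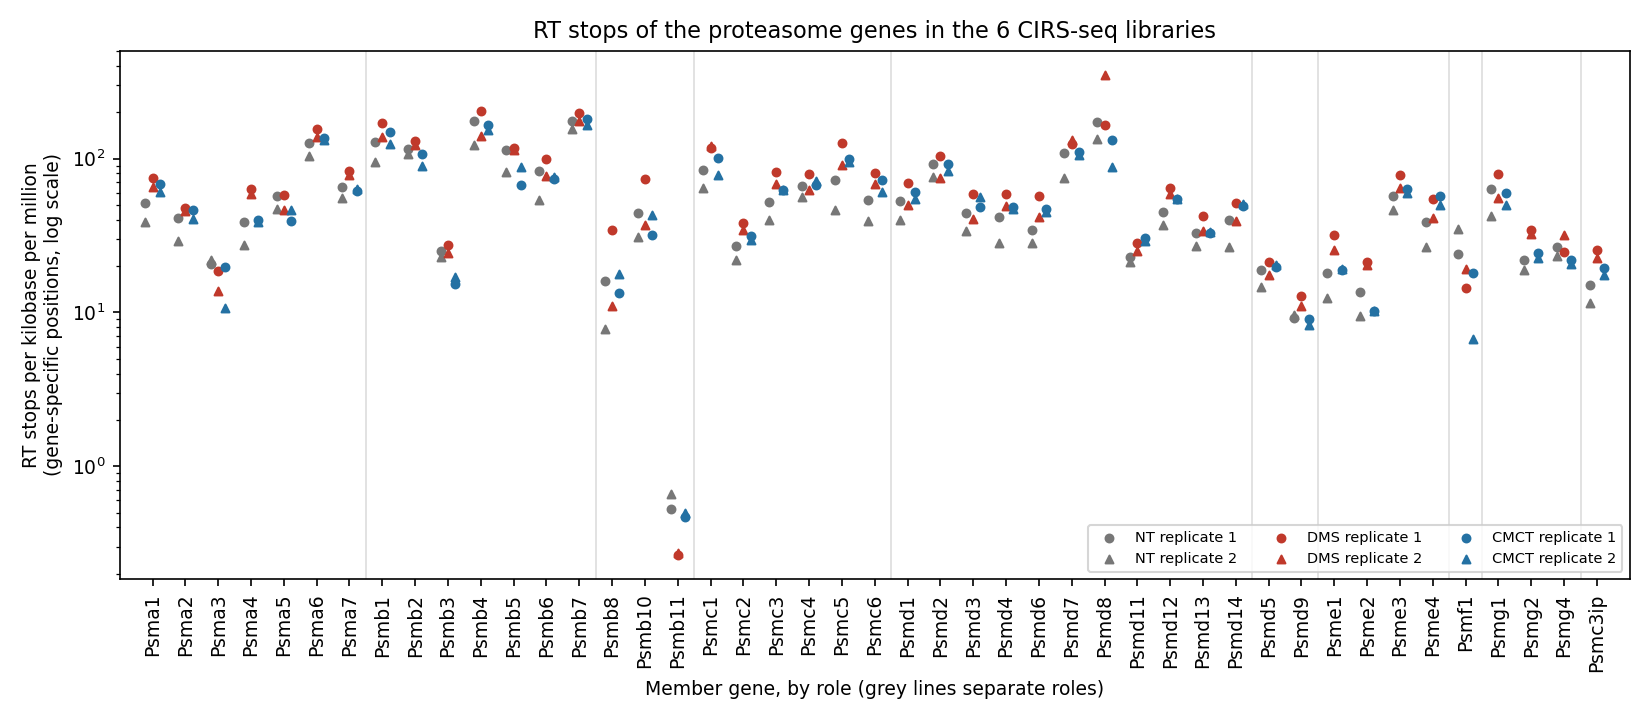
RT stop levels at gene-specific positions, scaled as RPKM (log axis), for the 45 genes with such positions, ordered by role, with a circle for replicate 1 and a triangle for replicate 2 of NT, DMS and CMCT. Psmb11 lies below 1 in every library, and Psmd8 has 1 point, DMS replicate 2, far above the others.

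Psmb8 stood apart between the assays. It had 2 RNA-seq reads and 1068 RT stops, of which 170 and 66 were in NT, 330 and 103 in DMS and 209 and 190 in CMCT. These RT stops were spread over 272 of the 779 gene-specific positions of its only listed transcript, and 97.2% of its RT stops were gene-specific. For comparison, the Psmb11 RT stops at gene-specific positions were 26 and 26 in NT, 12 and 12 in DMS and 34 and 25 in CMCT, over 33 of 3645 positions. Psmb8 was thus read along its length in every library while RNA-seq, made from 1 separate library, held almost none of it. What this difference comes from was not tested.

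The order of RT stops among the genes was as follows. In NT the highest were Psmb7 at 165 ± 12.7 (mean ± SD, n = 2), Psmd8, a non-ATPase subunit of the regulatory particle, at 154 ± 28.6, and Psmb4, a beta ring subunit, at 149 ± 37.3, which did not differ beyond their spread. The lowest were Psmb11 at 0.594 ± 0.0955, Psmd9 at 9.39 ± 0.229 and Psme2, a subunit of the PA28 activator, at 11.5 ± 2.93. In CMCT the order began with Psmb7 (173 ± 12.5), Psmb4 (160 ± 8.66) and Psmb1 (136 ± 16.7) and ended with Psme2 (10.3 ± 0.0174), Psmd9 (8.68 ± 0.550) and Psmb11 (0.482 ± 0.0209). In DMS it began with Psmd8 (258 ± 131), Psmb7 (187 ± 15.8) and Psmb4 (172 ± 46.0) and ended with Psma3 (16.2 ± 3.39), Psmd9 (11.9 ± 1.30) and Psmb11 (0.269 ± 0.00603).

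This order depends on the transcripts counted. On 1 protein-coding transcript per gene in place of all transcripts of the gene, the highest in NT were Psmb3 at 219 ± 16.2, against 23.9 ± 1.45 on all its transcripts, Psmb6 at 159 ± 54.8 and Psmd8 at 154 ± 28.6. In DMS they were then Psmd8, Psma4 at 251 ± 14.2 and Psmb3 at 223 ± 21.8, and in CMCT Psmb6 at 183 ± 6.05, Psmb4 at 166 ± 15.0 and Psma7, an alpha ring gene, at 162 ± 1.54. Psmb11 and Psmd9 remained the lowest in all 3. Psmb3 was read there over only 121 gene-specific positions.

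Across the 45 genes, Spearman's rho between the RNA-seq level and RT stops per base reached 0.814 (NT), 0.823 (DMS) and 0.849 (CMCT). Over 7742 protein-coding genes it was 0.578, 0.682 and 0.711. With all positions in place of gene-specific ones, the values fell to 0.415, 0.539 and 0.562 for the proteasome genes and to -0.18, -0.13 and -0.03 for all. With RNA-seq counted over coding regions, the gene-specific values for the proteasome genes were 0.616, 0.608 and 0.627, beside 0.551, 0.651 and 0.677 over all, so that the proteasome genes were the higher in NT and the lower in DMS and CMCT. These are descriptions across genes that share libraries and annotation, and genes are not independent replicates. Except over coding regions, RNA-seq was scaled by all annotated exons of a gene. RT stops were scaled by the positions of all its listed transcripts. The part that this overlap in scaling has in rho was not tested.

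**Figure D2:**
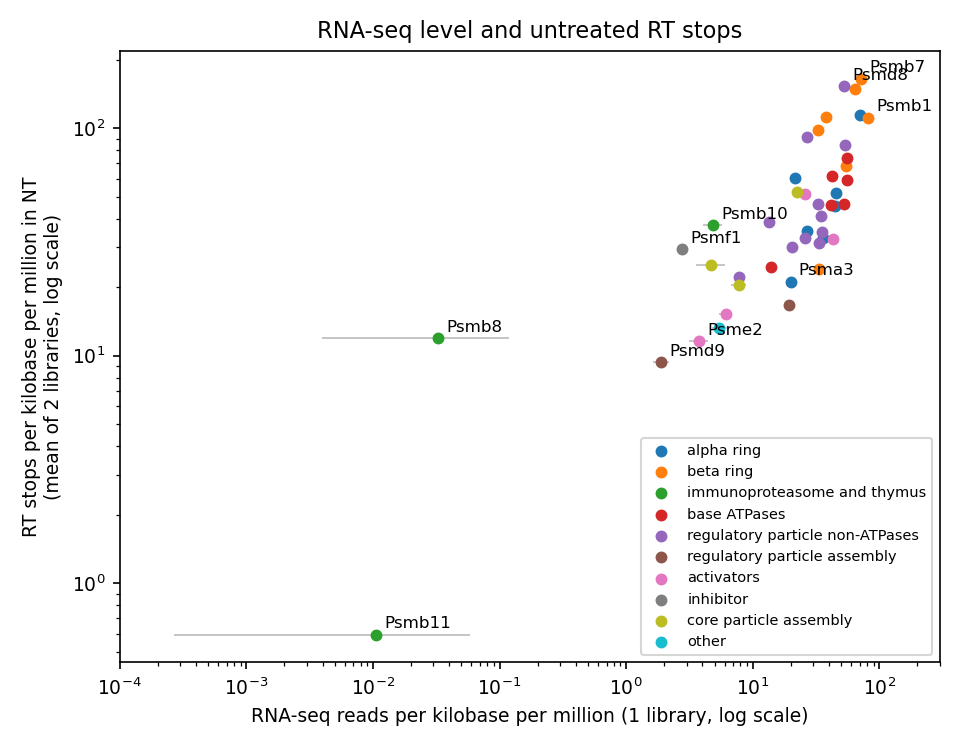
RNA-seq level in RPKM (horizontal, log axis, bars are exact 95% Poisson intervals of 1 library) against the mean RT stop level of 2 NT libraries (vertical, log axis), 1 point per gene, coloured by role. Most genes follow 1 band, while Psmb8, at 0.0328 RPKM and an RT stop level of 12, lies far to its left.

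Whole-gene counts of RT stops were compared between treated and NT libraries to see which genes gained or lost stops as a whole. No proteasome gene passed. By edgeR's quasi-likelihood test with Benjamini-Hochberg adjustment over 11321 genes, 0 of 45 were called in DMS against NT, where 9.04% of all genes were, and 0 of 45 in CMCT against NT, where 5.75% were. At an unadjusted p under 0.05 there were 4 and 3 genes, beside 30.5% and 27.3% of all genes. DESeq2 called 1 (Psmb11), where it called 15.7% of all genes, and 2 (Psmb3 and Psmf1), where it called 15.4%. Both comparisons share the NT libraries. The median log2 difference was 0.01 in DMS and 0.08 in CMCT, beside 0.05 and 0.04 over all genes tested, and 24 and 26 of the 45 were above 0.

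These differences are on the scale of edgeR's TMM factors, which lowered DMS against NT by 0.41 and CMCT against NT by 0.17 on the log2 scale relative to library totals. On totals, the median of all genes moved to 0.45 and 0.21 and that of the proteasome genes to 0.42 and 0.23. On totals 4 genes were called in DMS (Psma4, Psmc3ip and Psme2 higher, Psmb11 lower), where 25.3% of all genes were, and 0 in CMCT, where 11.4% were. The levels in the plot of RT stops by library are on totals. There, 27 of 45 genes had both DMS libraries above both NT libraries, beside 56.9% of all genes, and 3 had both below, beside 18%. For CMCT these were 20, beside 40.6%, and 9, beside 21.4%.

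Psmb11 was nearest to a call in DMS. It differed by -1.54 ± 0.36 (SE) in DMS, with an adjusted p of 0.0510 by edgeR, on 12 RT stops in each DMS library and 26 in each NT library, which did not overlap. Its difference in CMCT was -0.48 ± 0.33. Both are in effect 3′ UTR values. The 3′ UTR of Psmb11 held 25 and 25 RT stops in NT, 12 and 12 in DMS and 34 and 25 in CMCT. Its coding region held 1 in each NT library and 0 in every treated one, and RNA-seq had 0 reads there. In CMCT the nearest was Psmb3, at -0.73 ± 0.22 with an adjusted p of 0.120 by edgeR. For this gene 74.3% of RT stops were not gene-specific. It had 412 and 301 gene-specific RT stops in NT, and 43 positions of its 5′ UTR held 229 and 163. Its whole-gene value and its 5′ UTR value below thus share many RT stops. Psmf1 had RT stop levels of 24.1 and 34.7 in NT, 14.5 and 19.2 in DMS and 18 and 6.67 in CMCT. Its difference was -1.23 ± 0.47 in DMS and -1.49 ± 0.48 in CMCT, with adjusted p of 0.149 and 0.128 by edgeR. Counted over all positions, where repeats take most of its RT stops, the differences of Psmf1 were -0.016 ± 0.37 and -0.040 ± 0.37, and that of Psmb11 in DMS was -0.72 ± 0.28. At gene-specific positions every treated Psmf1 library was below both NT libraries, and the CMCT replicates were far apart.

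Among the catalytic subunits the log2 differences in DMS were -0.16 ± 0.27 for Psmb5, -0.03 ± 0.22 for Psmb6, -0.23 ± 0.16 for Psmb7, 0.51 ± 0.56 for Psmb8 and 0.15 ± 0.37 for Psmb10. In CMCT they were -0.49 ± 0.28, -0.02 ± 0.22, -0.11 ± 0.16, 0.24 ± 0.56 and -0.14 ± 0.37. Each was within 2 SE of 0. On library totals, where all genes are shifted alike, the DMS values of Psmb5, Psmb6 and Psmb7 became 0.24, 0.37 and 0.17, each below the median of all genes there. Without DMS replicate 1 the DMS values of Psmb8 and Psmb10 turned to -0.39 and -0.28.

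Psmd8 was read very differently by the 2 DMS libraries. Its RT stops were 3315 and 2024 in NT, 2879 and 5929 in DMS and 3732 and 1702 in CMCT. DMS replicate 2 was the highest of the 6. In bases 501 to 600 of the transcript it held 3081, beside 703 in DMS replicate 1, 1219 and 714 in NT and 1065 and 240 in CMCT. From base 701 on the DMS replicates were closer, as 233 and 182 in bases 901 to 1000. The gene's difference in DMS was 0.36 ± 0.38 with both replicates, and it turned to -0.30 without DMS replicate 2.

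**Figure D3:**
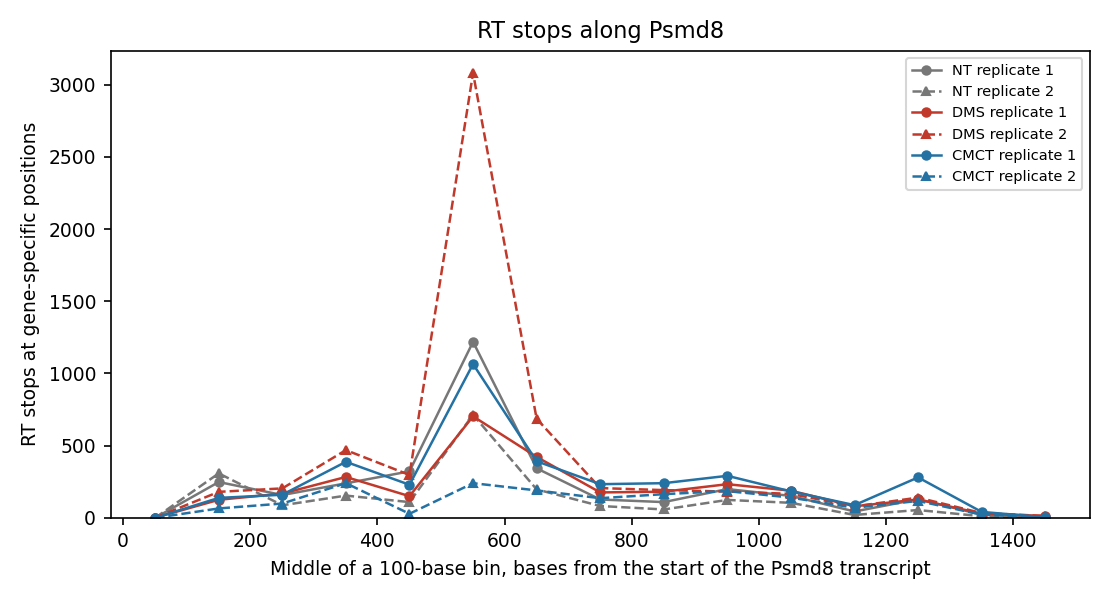
RT stops at gene-specific positions in 100-base bins along the Psmd8 transcript (horizontal, bases from its start), 1 line per library, solid for replicate 1 and dashed for replicate 2. 5 libraries peak in bases 501 to 600, where DMS replicate 2 reaches 3081, and CMCT replicate 2 has 240 both there and in bases 301 to 400.

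Within the mRNAs, the differences from NT varied by region. RT stops were counted in both UTRs and in the coding region of 1 protein-coding transcript per gene and compared in the same way over 15257 regions. Most 5′ UTRs of proteasome mRNAs had values below 0: the median log2 difference of 39 was -0.72 in DMS and -1.06 in CMCT, with 33 and 35 of 39 below 0. Without NT replicate 2 the DMS median was -0.44. Over all 4273 5′ UTRs the medians were -0.42 and -0.69, with 72.5% and 79.9% below 0. The 43 coding regions had medians of 0.08 and 0.13, beside 0.10 and 0.16 over all, and the 35 3′ UTRs had 0.10 and 0.29, beside -0.15 and 0.05.

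None of these regions passed singly. The edgeR test called 0 of 117 proteasome regions in either comparison, as it called 0 of 15257 regions (0%) in all, of which 4227 and 4506 had an unadjusted p under 0.05. At an unadjusted p under 0.05 there were 36 proteasome regions in DMS and 45 in CMCT, of which 24 and 28 were 5′ UTRs. That is 61.5% and 71.8% of the proteasome 5′ UTRs, beside 30.2% and 41.6% of all 5′ UTRs. DESeq2 called 6 proteasome regions in DMS, where it called 6.91% of all, and 16 in CMCT, where it called 11.7%. Of the 16, 15 were 5′ UTRs and all 15 were lower. Over all regions 1159 of the 1812 called in CMCT were lower, and the share of all 5′ UTRs called was not counted. By DESeq2 in CMCT 85.7% of 42 proteasome 5′ UTRs were below 0, beside 71.6% of 5697 in all. Of the 6 in DMS, 4 were higher (the coding regions of Psma4 and Psme1, the 3′ UTR of Psma1 and the 5′ UTR of Psmc1) and 2 were lower, the 5′ UTRs of Psmd2 and Psma5. Without a filter on low counts, edgeR called 5 proteasome regions in CMCT, all 5′ UTRs and all lower, where it called 1.44% of all. Of the 264 regions called there over all, 154 were lower, and 5′ UTRs among them were not counted. The difference between proteasome and all 5′ UTRs was not tested, and neither was the part that length has in it: the median 5′ UTR was 93 bases long in the proteasome transcripts and 136 in all.

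The values behind 3 of these, chosen after their values were seen for their low adjusted p, in CPM as scaled by edgeR's TMM factors, are given next. The 5′ UTR of Psma5 had 35.1 and 34.7 in NT, 16.7 and 16.8 in DMS and 11.7 and 10.6 in CMCT, a log2 difference of -1.06 ± 0.17 and -1.64 ± 0.17 with adjusted p of 0.0784 and 0.0571 by edgeR. The 5′ UTR of Psmb3, a beta ring gene, had 35.8 and 43.2 in NT, 26.7 and 31.0 in DMS and 13.5 and 12.9 in CMCT. For Psmd2, the scaffold subunit of the regulatory particle also known as Rpn1, the values were 94.0 and 135 in NT, 25.8 and 31.7 in DMS and 43.8 and 30.6 in CMCT. In each of the 3 the treated libraries lay below both NT libraries with no overlap, which a choice by low adjusted p favours. The share of all 5′ UTRs without overlap was not counted.

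The same shift shows in densities. Over 36 proteasome transcripts with enough positions, the density of RT stops in the 5′ UTR was 1.40 and 1.99 times that in the coding region in NT (medians of replicates 1 and 2), 0.894 and 1.21 times in DMS and 0.749 and 0.700 times in CMCT. Over 5583 transcripts these were 0.721 and 0.881, 0.559 and 0.629, and 0.496 and 0.478. Proteasome 5′ UTRs thus carried more RT stops per base relative to the coding region than the median transcript in every library, the untreated ones included.

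Psmc1, an ATPase of the base, was among the few that went the other way. Its 5′ UTR had 2.19 and 5.57 CPM in NT, 7.68 and 25.4 in DMS and 8.41 and 13.4 in CMCT, a log2 difference of 2.16 ± 0.73 in DMS. It is named because it was the highest of the 39, after its values were seen, and its DMS replicates were more than 3 times apart. This 5′ UTR had 22 gene-specific positions, with 14 and 21 RT stops in NT. Some of the lower 5′ UTRs that DESeq2 called in CMCT were smaller still. That of Psmb5 had 4 gene-specific positions, with 34 and 22 RT stops in NT, and that of Psmc6 had 19. The 5′ UTR of Psmc5, another ATPase of the base, differed by 1.03 ± 0.31 in DMS and 0.35 ± 0.31 in CMCT.

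**Figure D4:**
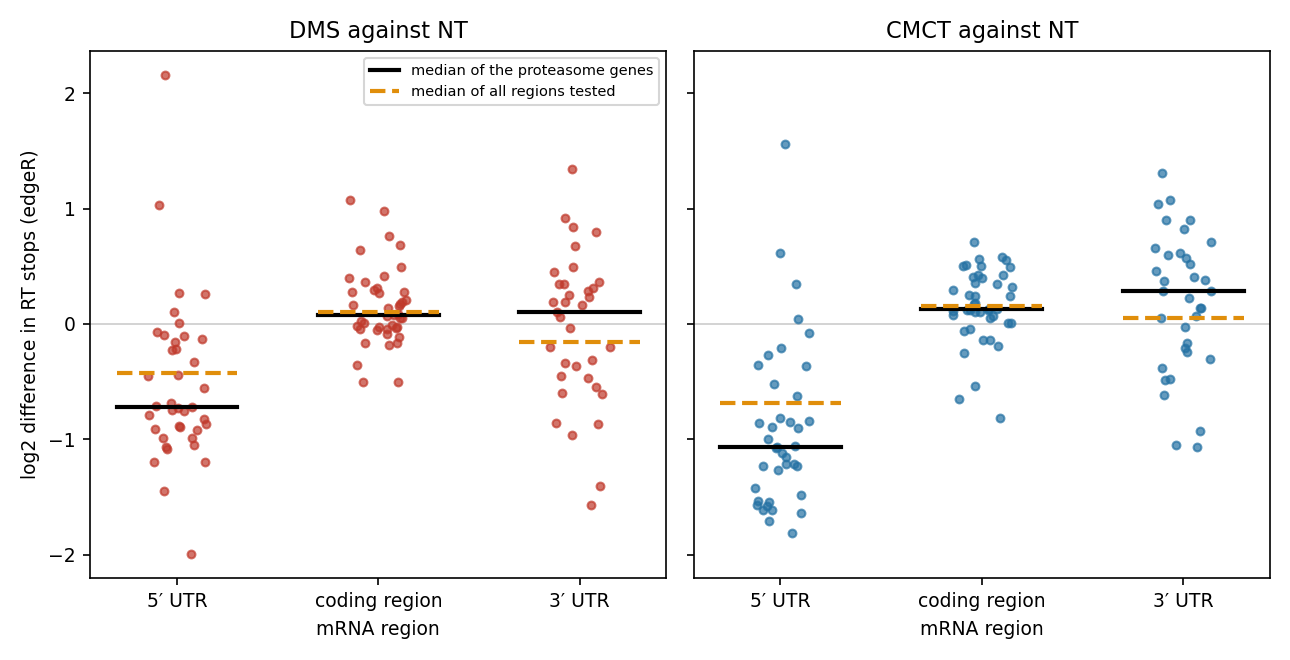
edgeR log2 differences in RT stops between treated and NT libraries for each mRNA region of the proteasome genes (39 5′ UTRs, 43 coding regions and 35 3′ UTRs), with the median of the points in black and the median over all regions tested as a dashed orange line. The 5′ UTR points lie mostly below 0, around -0.72 in DMS and -1.06 in CMCT.

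Which bases carried the stops differed by reagent. The means are over the pooled positions of 42 transcripts with at least 1 RT stop per base in the treated libraries together. Transcripts with more positions thus weigh more. The means take gene-specific positions with an RT stop in the reagent or in NT. This set differs by reagent, with 8599 A and 6192 U for DMS and 6282 A and 8264 U for CMCT. Positions stopped by 1 reagent alone enter only its means, which raises them at its bases. The mean log2 ratio of DMS over NT was 1.12 at A, 0.08 at C, -0.20 at G and -0.39 at U. It was highest at A in 42 of 42 transcripts, and C exceeded G in 37. For CMCT the means were 0.51 at U, 0.01 at G, 0.05 at A and -0.09 at C, and U was the highest in 38 of 42. Over 4318 transcripts of all genes, A stood at 1.04 in DMS and U at 0.51 in CMCT. Each replicate alone gave 0.90 and 0.99 at A in DMS and 0.47 and 0.48 at U in CMCT. The mean at C in CMCT turned to 0.15 in replicate 2 alone, above A at 0.11. With a pseudocount of 5, A in DMS stood at 0.46 and U in CMCT at 0.24, still the highest base of each.

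**Figure D5:**
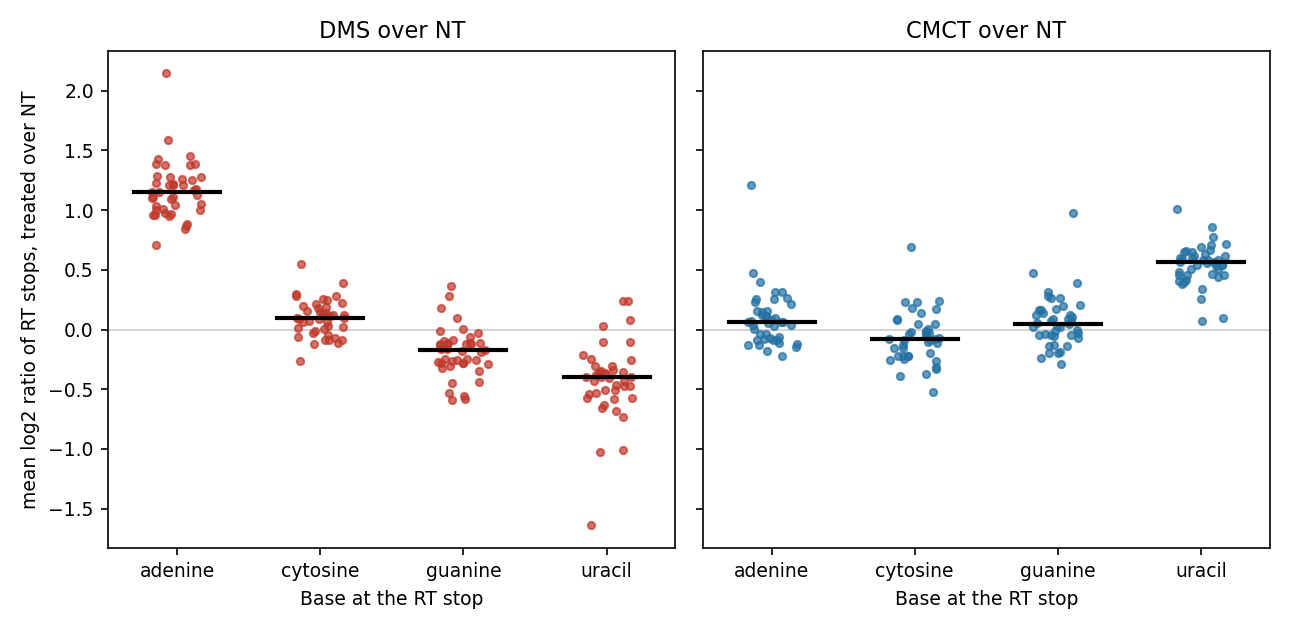
Mean log2 ratio of RT stops, treated over NT, at adenine, cytosine, guanine and uracil for 42 proteasome transcripts (points) with the median in black. Positions with an RT stop in the reagent or in NT are included. Adenine is the highest base in every transcript for DMS, and uracil in 38 for CMCT.

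Single positions were taken by a fixed rule. Among positions with at least 50 RT stops in each CMCT replicate (33 positions), the 5 with the largest CMCT over NT log2 ratio are shown as the strongest single CMCT ratios in these mRNAs. They hold a small part of all RT stops. The capital is the base at the stop, with 12 bases on either side, in mm9, written as DNA.
Psme4, coding region, exon 33, chr11:30745308-30745332, plus strand: cactggggatacTacaactggccaa
Psmg1, coding region, exon 2, chr16:96211104-96211128, minus strand: ttataattgcagTaggaagcaacgc
Psmd1, coding region, exon 14, chr1:87986700-87986724, plus strand: gcgttagtgatgTacgggaggatgg
Psmd3, coding region, exon 7, chr11:98554781-98554805, plus strand: tccctcatgcccTacttccttctca
Psmd3, 3′ UTR, exon 12, chr11:98557078-98557102, plus strand: catgcctctctgTagctggtgacag

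All 5 are uridines, and in all 5 the base that follows is an A. The Psme4 position had 88 and 54 RT stops in CMCT, 16 and 0 in NT and 17 and 6 in DMS, a log2 ratio of 2.39 in CMCT. The Psmg1 position had 87 and 67 in CMCT and 24 and 1 in NT (2.25). The Psmd1 position had 59 and 64 in CMCT and 17 and 1 in NT (2.15). The 2 Psmd3 positions had 62 and 76 in CMCT and 16 and 4 in NT (exon 7), and 66 and 190 in CMCT, 36 and 2 in NT and 121 and 8 in DMS (exon 12). In all 5 the NT counts came mostly from replicate 1, and the CMCT ratio of replicate 2 was the larger, as 1.86 and 5.37 for Psme4 and 0.42 and 5.39 for Psmd3 in exon 12.

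Of the 33 positions above, 28 were a U before an A and 4 a C before an A. The pair of U before A also held more RT stops than most others in the NT and DMS libraries. Relative to the mean of each transcript, positions of U before A held 4.68 and 4.50 times as many RT stops in NT, 3.57 and 2.36 times in DMS and 5.95 and 6.50 times in CMCT. Positions of C before A held 4.07 and 2.98 times in NT, 3.62 and 2.79 in DMS and 3.08 and 2.92 in CMCT. No other pair exceeded 1.04 in NT. Over all transcripts, U before A held 4.29 and 4.31 times in NT, so the pattern is not particular to the proteasome mRNAs. The DMS libraries had a further pair, A before A, at 2.20 and 3.03 times, beside 0.337 and 0.555 in NT. These pairs were looked at after the strong positions had been seen.

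As a ratio of CMCT over NT, U stood at 0.69 before A (0.61 and 0.85 in the 2 replicates), 0.57 before U, 0.51 before G and 0.25 before C. The U before A was the highest in 18 of 38 transcripts with enough positions and the U before U in 12.

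In DMS only 7 positions had at least 50 RT stops in each replicate, and of the 5 with the largest ratio, 1 was above 0. It is also the position with the most RT stops in DMS, and it is printed with the position that held most in NT because both lie in the peak of Psmd8 and 9 bases apart in the mRNA across the junction of exons 3 and 4, so that their windows have no single interval in the genome.
Psmd8, base 578, chr7:29962246, minus strand: gattacaaagaaCagcttcctgagt
Psmd8, base 569, chr7:29963942, minus strand: tactactttgatTacaaagaacagc

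The C at base 578 had 55 and 725 RT stops in DMS, 69 and 11 in NT and 24 and 10 in CMCT. Its log2 ratio was 2.67 with both replicates, -0.18 in replicate 1 and 4.82 in replicate 2, so 1 library carried it. The U at base 569, again before an A, had 192 and 142 in NT, 129 and 59 in DMS and 65 and 25 in CMCT. Every treated count was below both NT counts, before any scaling for depth, which its choice for the most RT stops in NT favours. The other 4 DMS positions lay in the 5′ UTRs of Psmb4, Psmb2 (2 positions) and Psma4, with log2 ratios of -0.27 to -0.47 and NT counts of 58 to 102. The position with the most RT stops in CMCT was an A in the 3′ UTR of Psma3 (chr12:72097107), just before the repeat window shown above, with 274 and 41 in CMCT and 173 and 141 in NT.

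Reactivity, the treated over NT log2 ratio set to 0 where negative, capped at its 90th percentile in the transcript and divided by it, with the larger of DMS and CMCT taken at each base, summarises the signal at a base and draws on the same RT stops as the region counts. The coding regions had a median of 0.398 and the 50 bases of the 5′ UTR before them 0.302. The 5′ UTR was the lower in 29 of 36 proteasome mRNAs (80.6%), beside 72.8% of 3374 mRNAs in all. The first 50 bases of the 3′ UTR were lower than the coding region in 29 of 37 (78.4%), beside 72.0% of all, with a median difference of -0.118, beside -0.0747. The edgeR region counts, over whole 3′ UTRs, did not show this. There the 3′ UTR was below the coding region in 16 of 34 mRNAs in DMS and 14 of 34 in CMCT (median differences 0.013 and 0.149). Over all mRNAs this held for 62.0% and 56.1%. Bases without a treated RT stop have a reactivity of 0, so regions with few RT stops also read low. Each replicate alone gave median differences of -0.0847 and -0.0733 for the 5′ UTR and -0.136 and -0.0907 for the 3′ UTR.

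The start codon did not stand out. The 6 bases before AUG and its first base were below the coding region in 19 of 32 mRNAs (59.4%) and above it in 13. Over all 3101 mRNAs they were below it in 49.2%. The median difference was -0.0228, beside 0.00636 in all mRNAs. Its sign turned with the replicate used (-0.00712 for replicate 1 alone and 0.00703 for replicate 2 alone). Psmc1 had the highest value at the start codon, 0.898. These counts include windows with few reads: Psmd8 held no RT stop in its 5′ UTR in any library and Psmc2 held 10 over its whole 5′ UTR, and both windows are at 0. Over windows with at least 10 RT stops in the treated libraries together, a limit added after seeing the data, the start codon was the lower in 13 of 25 (median difference -0.00103), the 5′ UTR in 27 of 34 (-0.0754) and the 3′ UTR in 26 of 34 (-0.103). In all mRNAs such windows were the lower in 36.1% of 2113 (0.0776), 71.3% of 3194 (-0.0727) and 69.1% of 2942 (-0.0607). Within codons, the first base exceeded the third in 23 of 36 mRNAs by a median of 0.0382, beside 0.0305 in all mRNAs, and the median was 0.0173 in replicate 2 alone and 0.00878 for CMCT alone. The first base exceeded the second in 18 of 36, beside 2096 of 3483 mRNAs in all. The median of first minus second, -0.00343, turned above 0 with a pseudocount of 5, on all positions, with each reagent alone and with each replicate alone.

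Genes of the pathway outside the family were read from a list of 26, of which 22 were tested. None passed edgeR's threshold in DMS or CMCT, where 3 and 3 had an unadjusted p under 0.05 and DESeq2 called 0 and 2, beside the shares of all genes given above. The nearest in each comparison are named after their values were seen. In CMCT it was Ubb, which encodes a chain of ubiquitin repeats, at -0.84 ± 0.20 (adjusted p 0.0700 by edgeR). In DMS the nearest was Nfe2l1, the transcription factor that raises subunit genes when the proteasome is inhibited, at 0.68 ± 0.21 (adjusted p 0.0979). The shuttle factors and p97 lay between -0.49 and 0.30 in DMS and between 0.02 and 0.42 in CMCT.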

How the data were processed

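RT stops per transcript base in 2 NT, 2 DMS and 2 CMCT libraries were deposited by the authors as raw counts, with reads mapped to transcripts of an mm9 variant carrying E14 single-nucleotide variants. The tools that the submitters' processing notes list are FastQC 0.10.1, Bowtie 1.0.0, bedtools 2.17.0 and, for RNA-seq, TopHat2 2.0.6. How reads with several places were treated is not given in the sources used here. RNA-seq was deposited as alignments to mm9. Pooled tables were not used. The genes and lists were chosen with earlier results of these data known.

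Gene-specific positions were found by matching the 25 bases after each position to the reference mm9 genome and its GENCODE annotation, without the E14 variants. Counts per gene and per region were tested with edgeR 4.0.16 (quasi-likelihood, TMM, filterByExpr) over all 6 libraries, with a Benjamini-Hochberg threshold of 0.05. DESeq2 1.42.0, no filter, all positions, 4 libraries, a replicate block and leave-one-out were alternatives. Library totals, RNA-seq reads aligned once, 1 transcript per gene and a minimum of RT stops in a window were added after seeing the data. RNA-seq alignments were counted by midpoint in exons of exactly 1 gene, 22286799 of 31857551, of which some reads have several alignments. Ratios used a pseudocount of 1. Same-numbered libraries deviated from their group means with correlations of 0.419 (NT with DMS), 0.015 (NT with CMCT) and 0.042 (DMS with CMCT). Same-numbered NT and DMS libraries thus deviated together, and those with CMCT did not. The main fit did not take the replicate numbers as pairs, and the replicate block, which does, is given as an alternative. The study calls the replicates biological, and the labels do not say more.

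The genes named by rule are the catalytic subunits, the 3 highest and 3 lowest in each assay, genes and regions past the threshold, and the positions chosen by counts. Other names were chosen after values were seen. The scripts were tested on simulated data. Intervals cover counting error only. The result of 1 gene of the pathway list is not reported here.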

Additional observations from a re-analysis of the deposited data

How the results depend on the processing

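With 2 libraries a group, calls depended on the setting. In DMS, proteasome genes called were 1 by DESeq2, 1 with no filter, 2 on 4 libraries and 4 on library totals, and in CMCT 2 by DESeq2. Leaving out 1 library at a time gave 0 in DMS and 0 to 2 in CMCT (Psma3 and Psmf1 without CMCT replicate 1). Over all genes the same gave 0 (without NT replicate 2) to 1143 in DMS and 39 (without NT replicate 1) to 3117 (without CMCT replicate 1) in CMCT, beside 3059 and 1120 on 4 libraries, 1825 and 1786 by DESeq2, 1699 and 1072 with no filter, 3485 and 3827 on all positions and 2867 and 1294 on library totals. Regions called were 6 by DESeq2, 3 on totals and 15 on all positions in DMS, and 16, 10 and 24 in CMCT, with 5 there with no filter. Over all regions, 2.88% were called on totals and 13% on all positions in DMS, and 5.67% and 16.4% in CMCT. The cause was not tested.

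With the replicate block, 1 gene (Psmb11) was called in DMS and 2 regions (the 5′ UTRs of Psma5 and Psmb3) in CMCT. The block pairs libraries by number, where NT and DMS libraries deviated together (0.419) and those with CMCT did not (0.015 and 0.042). Over all genes it called 1766 in DMS and 1094 in CMCT, and over all regions 0 in DMS and 0.596% in CMCT.

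The median 5′ UTR difference was -0.61 by DESeq2, -0.48 on totals and -0.61 on 4 libraries in DMS, and -0.88 on totals and -0.91 on all positions in CMCT. Leaving out 1 library gave -0.71 to -0.44 in DMS, the latter without NT replicate 2, and -1.20 to -0.88 in CMCT.

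Of 180 values of single genes under an alternative other than library totals, 152 kept direction and side of the threshold, 9 passed it and 19 changed sign. On totals, which shift all genes alike by 0.41 in DMS and 0.17 in CMCT, Psmb5 (0.24), Psmb6 (0.37), Psmb7 (0.17) and Psmb3 (0.12) changed sign in DMS, and Psmb6 (0.13), Psmb7 (0.067) and Psmb10 (0.0016) in CMCT. With no filter Psmb6 changed to 0.026 and 0.030. On all positions Psma3 changed to 0.21 in DMS and 0.092 in CMCT, and Psmb5 (0.17), Psmb6 (0.055) and Psmb7 (0.16) changed in CMCT. On 4 libraries Psmb6 was 0.023 in CMCT. With 1 library left out, DMS values ran from -0.21 to 0.18 for Psmb6 (above 0 without NT replicate 1 or DMS replicate 2), -0.39 to 1.10 for Psmb8 and -0.28 to 0.57 for Psmb10 (below 0 without DMS replicate 1) and -0.30 to 0.92 for Psmd8 (below 0 without DMS replicate 2). CMCT values ran from -0.20 to 0.18 for Psmb6 and -0.48 to 0.13 for Psmb10 (above 0 without NT or CMCT replicate 1) and -0.095 to 0.71 for Psmb8 (below 0 without NT or CMCT replicate 2).

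The median RT stop level was 38.9, 55.4 and 52.2 in NT, DMS and CMCT. It was 4.18, 5.88 and 5.90 on all positions and 57.0, 78.4 and 69.8 on 1 transcript per gene, and 34.7 to 44.2, 49.1 to 63.5 and 49.5 to 49.9 by single replicates. The RNA-seq median of 32.5 became 54.8 over coding regions and 23.7 on reads aligned once.

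The reactivity difference of the 5′ UTR was -0.0744 on all positions, -0.0626 in DMS alone, -0.0557 in CMCT alone and -0.0847 to -0.0733 by single replicates. That of the 3′ UTR was -0.154 on all positions, -0.0801 in DMS alone and -0.136 to -0.0907 by replicates. The start codon stood at 0.0367 with a pseudocount of 5, 0.00574 in DMS alone, -0.0590 in CMCT alone, -0.00103 over windows with at least 10 treated RT stops and -0.00712 to 0.00703 by replicates. The first minus second codon base was 0.0130 with a pseudocount of 5, 0.00696 on all positions, 0.000583 in DMS alone, 0.0110 in CMCT alone and 0.0163 to 0.0308 by replicates. The difference of the first and the third base was 0.0533 in DMS alone, 0.00878 in CMCT alone and 0.0173 to 0.0342 by replicates. The preference of DMS for A and C over G and U, 0.951, was 0.422 with a pseudocount of 5 and 0.717 to 0.968 by replicates. In CMCT the mean of G and U exceeded that of A and C by 0.313. That difference was 0.149 with a pseudocount of 5 and 0.134 to 0.331 by replicates. It rests on U at 0.51, since G at 0.01 was below A at 0.05.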
